A study of Mus musculus with 18 samples.

Results

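The genes described here are the MHC class I and Qa genes of the mouse with the partners that load them, 10 of the 18668 rows of the gene table, taken by their symbols: the heavy chains H2-K1 and H2-D1, the Qa-region genes H2-Q4, H2-Q6, H2-Q7 and H2-Q9, the light chain B2m, and the loading genes Tap1, Tap2 and Tapbp. They were measured in 18 RNA-seq libraries of bone marrow-derived macrophages (BMDM), grown from C57BL6 bone marrow with M-CSF. All 6 groups of 3 replicates lack Apoe. Of these, 3 groups are Apoe-/- and 3 are Apoe-/-/Treml4-/- double knockouts (DKO), each left untreated or given 10 µg/ml or 60 µg/ml of oxidized LDL (oxLDL 10 and oxLDL 60), the modified lipoprotein that macrophages take up in atherosclerosis. The series record gives 16 h of treatment, the study's methods give another time, and one protocol field of the labels speaks of LPS, so the time is uncertain. The labels do not say whether replicates came from separate animals, so p-values measure the spread between these libraries. Xist, given further on, differed between the replicates of every group. Nor do they give the age or sex of the bone marrow donors. The list counts as selected on the genotype and oxLDL differences of these same data, which were known when it was made, so its values are a description, with the shares of all genes as background.

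MHC class I molecules show peptides from inside the cell to CD8 T cells. A polymorphic heavy chain pairs with beta-2 microglobulin, peptides cut by the proteasome are pumped into the endoplasmic reticulum by the TAP transporter, and tapasin holds the empty molecule beside TAP until a peptide fits. Interferons, through STAT and IRF factors, and the transactivator NLRC5 raise the transcription of these genes. The Qa-2 antigens are less polymorphic class I molecules, known as ligands of inhibitory and innate-like lymphocyte receptors.

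Of the members, 8 lie with a known position on chromosome 17 (GRCm38.p6), the chromosome of Treml4 (chr17:48264200-48275607), at 12.8 to 14.3 megabases from it. Tapbp is the farthest (chr17:33919478-33929290), followed by H2-K1 (chr17:33996012-34000619), Tap1 (chr17:34187556-34197225) and Tap2 (chr17:34204479-34216321). Nearer are H2-D1 (chr17:35263094-35267497), H2-Q4 (chr17:35379617-35384674), H2-Q6 (chr17:35424850-35430055) and H2-Q7 (chr17:35439140-35443773). B2m lies on chromosome 2 (chr2:122147687-122153082). The position of H2-Q9 is not given here.

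The promoters of the class I heavy chain genes and B2m are shown because the heavy chain promoters are close in sequence, while the levels of their transcripts after oxLDL, described further on, were not alike. Each line below is the 180 bases before a RefSeq transcript start (GRCm38.p6), written 5′ to 3′ on the strand of the gene. For H2-K1 and H2-Q7 that start lies inside the outer bounds of the gene given above. Capitals mark 3 kinds of match: the letters of an NF-kB site, the core of an interferon-stimulated response element, and CAGTTTCACTTCTGC, the longest stretch common to the 5 class I promoters, which was found from the sequences themselves. Of the 2 starts listed for H2-K1, the first is shown.
H2-K1: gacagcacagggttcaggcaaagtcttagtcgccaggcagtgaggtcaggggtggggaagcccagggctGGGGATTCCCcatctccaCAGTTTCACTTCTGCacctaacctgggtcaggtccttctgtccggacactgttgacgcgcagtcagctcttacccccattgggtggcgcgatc
H2-D1: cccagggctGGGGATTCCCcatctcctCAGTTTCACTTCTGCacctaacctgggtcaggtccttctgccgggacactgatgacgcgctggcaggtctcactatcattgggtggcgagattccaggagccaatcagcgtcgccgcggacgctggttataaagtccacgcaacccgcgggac
H2-Q4: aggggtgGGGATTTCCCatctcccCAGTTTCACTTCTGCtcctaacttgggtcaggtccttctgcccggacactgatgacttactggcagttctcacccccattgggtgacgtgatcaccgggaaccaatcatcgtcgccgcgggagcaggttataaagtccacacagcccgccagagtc
H2-Q6: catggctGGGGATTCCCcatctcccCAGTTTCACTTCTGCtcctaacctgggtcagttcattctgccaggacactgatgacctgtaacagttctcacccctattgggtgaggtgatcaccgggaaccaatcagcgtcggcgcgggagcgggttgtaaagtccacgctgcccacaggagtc
H2-Q7: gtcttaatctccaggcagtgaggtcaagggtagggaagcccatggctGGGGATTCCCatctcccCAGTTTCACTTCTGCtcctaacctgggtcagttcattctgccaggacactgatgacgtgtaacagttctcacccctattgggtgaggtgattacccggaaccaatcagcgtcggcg
B2m: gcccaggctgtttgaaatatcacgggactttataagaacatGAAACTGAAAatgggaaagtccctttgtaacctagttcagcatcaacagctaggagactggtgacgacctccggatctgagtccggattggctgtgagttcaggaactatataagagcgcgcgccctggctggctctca
In order, these are chr17:34000348-34000527 on the minus strand and, on the plus strand, chr17:35262914-35263093, chr17:35379437-35379616, chr17:35424670-35424849, chr17:35438975-35439154 and chr2:122147507-122147686. RefSeq promoters were matched for 8 of the 10 members, H2-Q9 and Tap2 being the others. On either strand, the NF-kB letters were found in 5 of these 8, the class I heavy chain genes, and in 1.12% of 32851 promoters of the same length. The shared stretch was found in the same 5 genes and in no other gene than H2-Q10 (0.0213% of promoters). The interferon core, in the fixed form searched, was found only in B2m of the 8, against 2.01% of all promoters. Looser forms of this element were not searched, and the shared stretch was not compared with them. Whether the 5 class I heavy chain promoters hold such a form was therefore not tested. On the other strand, TTTC in the shared stretch reads GAAA, the letters at both ends of the core marked in B2m. That the fixed form was found only in B2m does not show that these 5 promoters lack the element. TGACG, a part of the cyclic AMP response element, was in 6 of 8 (14.8% of all promoters), and CCAAT in 7 of 8 (27.5%). In the best local alignment, H2-Q6 and H2-Q7 were identical at 97.2% of 141 bases, and H2-K1 and H2-D1 at 89.9% of 119 bases. A match of letters is a description of the sequence and does not show a bound factor.

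The likeness extends to the transcripts, which limits what each row can say. Of all 50-base windows of the H2-Q7 transcript (GENCODE M21), 34.9% occur in a transcript of another gene. That share is 32.0% for H2-Q6, 24.3% for H2-Q4, 14.3% for H2-D1, 8.79% for H2-K1 and 0 for B2m. With windows of 150 bases it remains 9.68% for H2-Q7, which shares them with H2-Q5 and H2-Q6, 5.99% for H2-Q6 and 1.79% for H2-D1. Both read lengths are named in the labels. H2-Q8, a further copy, is listed below 0.0001 RPKM in 16 of 18 libraries, less than 1 whole read would give. It is above 0 in all 18 libraries, and 1526 values in 313 rows of the table lie above 0 but under 0.0001 RPKM. Such values are fractions of a read, so some counts were not whole reads. The method that counted reads shared by copies is not given in the sources used here. No share of windows was obtained for H2-Q8 or H2-Q9, and neither is among the genes found to share 150-base windows. Stretches that H2-Q6 and H2-Q7 share with them may therefore be missing from the shares above, which can be too low. The values of H2-Q6, H2-Q7 and H2-Q9 are uncertain one by one, and their sum with H2-Q8 is given beside them.

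Library depth recovered from the steps between low values was 39.7 to 54.2 M reads (M, mega). Of the low values, 76.3% lay within 0.05 of a whole step, against 10% by chance, so the depth is an estimate. All 7 macrophage markers had a mean of at least 1 RPKM, with a summed level of 5460 to 11700 RPKM. Markers of T cells summed to at most 0.184 RPKM, of NK cells to 0.2 and of dendritic cells to 0.306. Those of B cells summed to 1.19 to 2.41 RPKM, from Cd79b, of mast cells to at most 0.101 and of erythroid cells to at most 0.161. Neutrophil markers summed to 25.1 to 70.7 RPKM (4 of 5 at a mean of at least 1) and those of fibroblasts to 0.483 to 12.5 (2 of 4). Treml4 was 1.86 to 3.48 RPKM in untreated and 8.06 to 8.39 RPKM in oxLDL 60 Apoe-/- cells, and was 0 in 8 of 9 DKO libraries and 0.0116 RPKM in the other. Xist, the transcript of the inactive X chromosome, stood at 7.25 to 14.5 RPKM in 6 libraries (Apoe-/- replicate 2 and DKO replicate 3 at every treatment) and at most 0.069 RPKM elsewhere.

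RPKM are per length, so levels can be compared between genes. Over the 18 libraries the light chain was the highest, with a mean level of 1778 RPKM for B2m (1539 to 2150), rank 15 of the table. H2-D1 followed at 900 RPKM (715 to 1054) and H2-K1 at 491 RPKM (398 to 640). These 3 did not overlap one another. Tapbp, which encodes tapasin, stood at 91.4 RPKM (68.4 to 123) and H2-Q4, the Qa-region gene of highest level, at 45.9 RPKM (35.3 to 57.2). The transporter subunits overlapped, Tap1 at 24.3 RPKM (14.5 to 38.0) and Tap2 at 21.5 RPKM (18.0 to 28.1). H2-Q6 at 14.0 RPKM (6.76 to 24.5), H2-Q7 at 6.52 (3.34 to 12.2) and H2-Q9 at 2.33 (0.995 to 5.04) were the lowest and the most variable, with a highest library 3.63, 3.66 and 5.07 times the lowest. For B2m that ratio was 1.4.

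**Figure D1:**
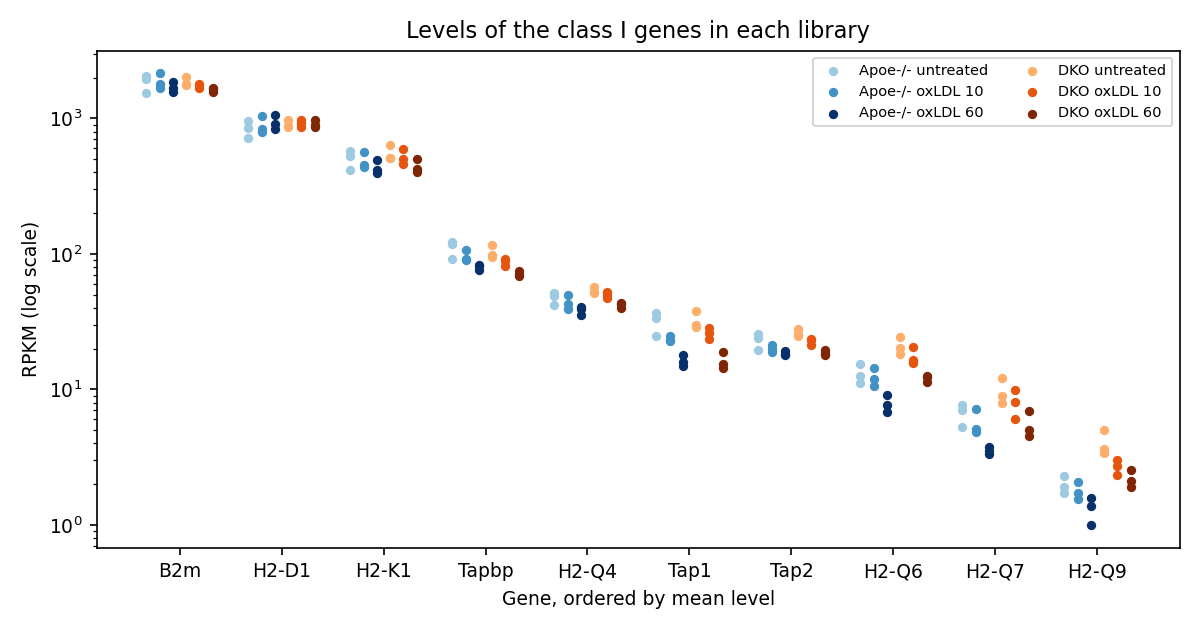
RPKM (log axis) of each class I gene in every library, genes ordered by their mean level and coloured by group (3 points per group). B2m, H2-D1 and H2-K1 sit apart at the top with little spread, while H2-Q6, H2-Q7 and H2-Q9 at the bottom have the widest spread between groups.

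The first comparison asks how the class I genes differed after oxLDL in each genotype. At oxLDL 60 the Qa-2 genes and Tap1 were lower than in untreated cells, in both genotypes, while H2-D1 and B2m did not pass the test. A gene was called at an adjusted p under 0.05 (limma, over 12838 genes) with a fold of at least 1.4 on the log2(RPKM + 0.1) scale. In Apoe-/- cells, 4 of 10 members were called lower (H2-Q6, H2-Q7, H2-Q9 and Tap1) against 6.78% of all genes (13.9% in either direction), and in DKO cells 5 of 10 (the same 4 and Tapbp) against 7.31%. No member was called higher (7.13% and 4.87% of all genes). The median log2 fold change of the members was -0.38 in Apoe-/- and -0.51 in DKO cells, against 0.06 and -0.06 over all genes. All 10 members passed the filter on low values. 

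Tap1, a transporter subunit and a known interferon target, was 24.6, 33.5 and 36.5 RPKM in untreated Apoe-/- cells and 15.0, 17.9 and 15.9 RPKM at oxLDL 60. The DKO libraries gave 29.0, 29.9 and 38.0 RPKM untreated and 15.5, 14.5 and 18.9 RPKM at oxLDL 60. The groups did not overlap, and every replicate number was lower in both genotypes. Its log2 fold change was -0.94 (SE 0.14, limma's adjusted p = 5.4e-05) in Apoe-/- and -0.98 (SE 0.14, adjusted p = 3.9e-05) in DKO cells.

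H2-Q6 encodes a Qa-2 heavy chain. It was 11.1, 15.3 and 12.6 RPKM in untreated Apoe-/- cells and 7.68, 9.12 and 6.76 RPKM at oxLDL 60 (-0.72 on the log2 scale, SE 0.15, limma's adjusted p = 0.00121). In DKO cells it was 20.2, 18.4 and 24.5 RPKM untreated and 12.5, 11.4 and 12.4 RPKM at oxLDL 60 (-0.78, SE 0.15, adjusted p = 0.000633). The treated libraries lay below all untreated ones of their genotype, and the DKO libraries at oxLDL 60 reached the level of untreated Apoe-/- cells.

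H2-Q7, whose promoter is nearly that of H2-Q6, was 5.26, 7.70 and 7.11 RPKM in untreated Apoe-/- cells and 3.34, 3.73 and 3.50 RPKM at oxLDL 60. The DKO libraries gave 8.98, 7.93 and 12.2 RPKM untreated and 5.02, 4.50 and 6.94 RPKM at oxLDL 60. Neither pair of groups overlapped, and the means at oxLDL 60 were 52.6% and 56.5% of untreated. The log2 fold changes were -0.89 and -0.81 (SE 0.21 for each, limma's adjusted p = 0.0033 and 0.00745).

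H2-Q9, the lowest of the members, was 1.71, 2.31 and 1.90 RPKM in untreated Apoe-/- cells and 1.37, 1.58 and 0.995 RPKM at oxLDL 60. In DKO cells it was 3.64, 3.42 and 5.04 RPKM untreated and 1.89, 2.10 and 2.53 RPKM at oxLDL 60. No library of one group reached the other. The log2 fold change was -0.57 (SE 0.18, limma's adjusted p = 0.0222) in Apoe-/- and -0.85 (SE 0.18, adjusted p = 0.00159) in DKO cells. The Apoe-/- call was lost without untreated replicate 2 (-0.45, adjusted p = 0.1) or oxLDL 60 replicate 3 (-0.39, adjusted p = 0.121), and by its size with a pseudocount of 1 RPKM (-0.37). As 1 row, the sum of H2-Q6 to H2-Q9 changed by -0.76 (SE 0.16, adjusted p = 0.00139) and -0.80 (SE 0.16, adjusted p = 0.00102).

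H2-Q4, a Qa-region gene outside the Qa-2 group, passed the adjusted p but not the fold limit. It was 41.7, 51.6 and 48.6 RPKM in untreated Apoe-/- cells and 38.9, 40.3 and 35.3 RPKM at oxLDL 60 (-0.31, SE 0.09, limma's adjusted p = 0.0147). The DKO libraries gave 52.7, 51.9 and 57.2 RPKM untreated and 42.4, 43.2 and 40.0 RPKM at oxLDL 60 (-0.36, SE 0.09, adjusted p = 0.00555). Both pairs of groups were without overlap.

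The partners of Tap1 in the loading complex sat near the fold limit. Tapbp was 91.0, 123 and 119 RPKM in untreated Apoe-/- cells and 76.0, 81.5 and 82.6 RPKM at oxLDL 60 (log2 fold change -0.46, SE 0.10, limma's adjusted p = 0.00274). In DKO cells it was 94.6, 98.0 and 117 RPKM untreated and 71.1, 68.4 and 74.3 RPKM at oxLDL 60 (-0.53, SE 0.10, adjusted p = 0.00101). Rescaling the libraries by the median ratio gave -0.52 and a call in Apoe-/- cells, and -0.46 and no call in DKO cells. The DKO call was also lost without untreated replicate 3 (-0.43) or without the Xist-positive animals (-0.47), and a call appeared in Apoe-/- cells without untreated replicate 1 (-0.59). Tap2, the other transporter subunit, was 19.4, 25.6 and 23.9 RPKM untreated and 18.0, 19.3 and 18.4 RPKM at oxLDL 60 in Apoe-/- cells (-0.30, SE 0.08, adjusted p = 0.013). Its DKO libraries were at 24.9, 25.6 and 28.1 RPKM untreated and 19.4, 18.1 and 18.5 RPKM at oxLDL 60 (-0.49, SE 0.08, adjusted p = 0.000336), just short of the limit, and it was called there without untreated replicate 1 or 2 or oxLDL 60 replicate 1.

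The 3 most abundant members were not called. H2-K1 was 416, 570 and 526 RPKM in untreated Apoe-/- cells and 419, 494 and 398 RPKM at oxLDL 60, which overlap (-0.20, SE 0.14, limma's adjusted p = 0.314). The DKO libraries gave 510, 512 and 640 RPKM untreated and 423, 404 and 505 RPKM at oxLDL 60, without overlap but not past the test (-0.32, SE 0.14, adjusted p = 0.116). The DKO libraries at oxLDL 60 were at 83.0%, 79.0% and 78.9% of the untreated library of the same replicate number. With that number as a random or a fixed block, limma's adjusted p for H2-K1 was 0.0236 and 0.00277 in DKO cells and 0.135 and 0.0395 in Apoe-/- cells, and the fold stayed below the limit. H2-D1, its fellow classical heavy chain, was 715, 951 and 855 RPKM untreated and 916, 1054 and 840 RPKM at oxLDL 60 in Apoe-/- cells (0.16, SE 0.12, adjusted p = 0.33). In DKO cells H2-D1 was 864, 877 and 979 RPKM untreated and 897, 859 and 969 RPKM at oxLDL 60, a log2 fold change of 0.0032 (SE 0.12, adjusted p = 0.989) whose sign has no meaning. B2m changed by -0.12 (SE 0.11, adjusted p = 0.458) and -0.18 (SE 0.11, adjusted p = 0.257), with 1539, 2049 and 1965 RPKM untreated and 1662, 1850 and 1570 RPKM at oxLDL 60 in Apoe-/- cells. In DKO cells B2m was 1778, 1805 and 2004 RPKM untreated and 1579, 1659 and 1674 RPKM at oxLDL 60.

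Counted by libraries, 7 of 10 members in Apoe-/- and 9 of 10 in DKO cells lay lower at oxLDL 60 without overlap, against 14.9% and 28.3% of all genes. None lay higher without overlap (25.8% and 14.3% of all genes). H2-K1, H2-D1 and B2m were the overlapping members in Apoe-/- cells and H2-D1 in DKO cells. The summed macrophage markers were also lower at oxLDL 60, at 6420 to 8350 RPKM against 8610 to 11400 RPKM in untreated Apoe-/- cells, and at 5460 to 7040 against 8060 to 10500 RPKM in DKO cells. Most of that sum is Lyz2, the lysozyme gene, at 4880 to 6690 against 7150 to 9480 RPKM in Apoe-/- and 3970 to 5500 against 6440 to 8730 RPKM in DKO cells. The other 6 markers summed to 1510 to 1660 against 1460 to 1870 RPKM in Apoe-/- cells, which overlap, and to 1490 to 1540 against 1620 to 1800 RPKM in DKO cells, which do not. Their part in the result was not tested. In RNA from whole cultures, fewer cells of a type and less RNA per cell cannot be told apart.

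**Figure D2:**
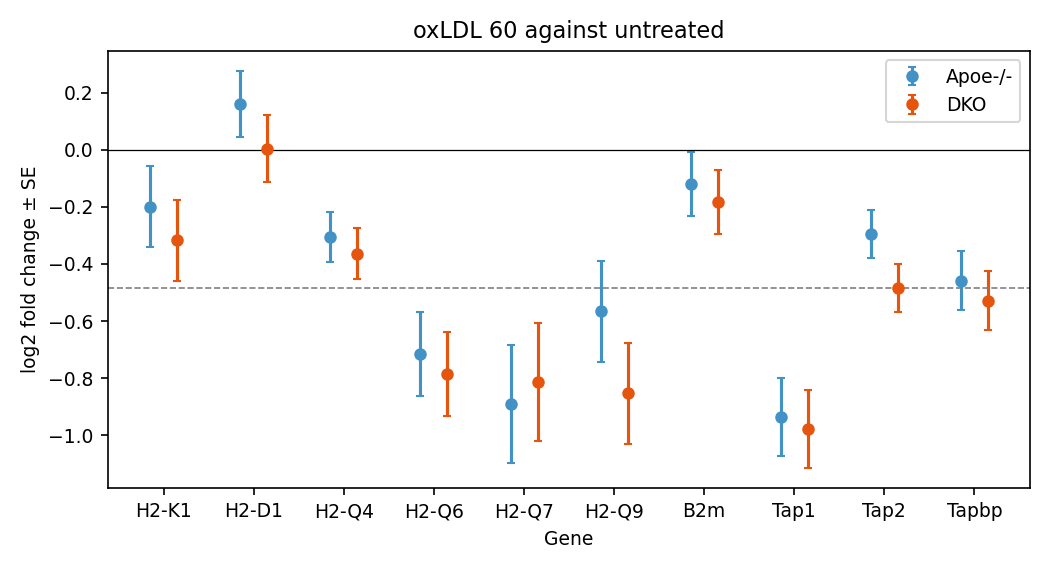
Log2 fold change (limma, with its SE) of each class I gene at oxLDL 60 against untreated, in Apoe-/- (blue) and DKO (orange) cells, 3 libraries per group; the dashed line is a 1.4-fold decrease. H2-Q6, H2-Q7, H2-Q9 and Tap1 lie below the line in both genotypes, and H2-D1 lies at or above 0.

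At the low dose no member was called in either genotype by limma (2.79% of all genes were called in Apoe-/- and 2.26% in DKO cells). Tap1 had the largest log2 fold change of the members in Apoe-/- cells, at 22.6, 25.0 and 23.2 RPKM (-0.40, SE 0.14, limma's adjusted p = 0.0905), and without untreated replicate 1 it was called (-0.57, adjusted p = 0.0129). In DKO cells Tap1 was 23.6 to 28.4 RPKM (-0.31, SE 0.14, adjusted p = 0.335). H2-Q9 had the largest there, at 2.73, 2.35 and 3.00 RPKM (-0.55, SE 0.18, adjusted p = 0.111). With the replicate number within a genotype as a random or a fixed block, H2-Q9 was called in DKO cells (adjusted p = 0.0152 and 0.0028). The mean of Tap1 thus stood at 74.7% of untreated at oxLDL 10 and 51.5% at oxLDL 60 in Apoe-/- cells, and at 80.5% and 50.6% in DKO cells. For H2-Q9 the means were 90.4% and 66.5% in Apoe-/- and 66.8% and 53.8% in DKO cells. At oxLDL 10, 4 members lay lower without overlap in DKO cells (H2-Q9, Tap1, Tap2 and Tapbp; 8.9% of all genes) and 0 of 10 in Apoe-/- cells (6.16%). With the random and the fixed block, limma's adjusted p for Tap1 was 0.0155 and 0.0032 in Apoe-/- and 0.0929 and 0.0244 in DKO cells, at folds below the limit.

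The second comparison asks how the genes differed between DKO and Apoe-/- cells. In untreated cells 2 of 10 members, H2-Q6 and H2-Q9, were called higher in DKO, against 0.171% of all genes. None was called lower (0.0389%). The levels, given above, did not overlap: the mean of H2-Q6 was 21.1 ± 3.15 RPKM in DKO and 13.0 ± 2.15 RPKM in Apoe-/- cells (SD, n = 3), and the log2 fold change was 0.70 (SE 0.15, limma's adjusted p = 0.0494). The mean of H2-Q9 was 4.03 ± 0.883 and 1.97 ± 0.307 RPKM (SD, n = 3), and the log2 fold change was 0.98 (SE 0.18, limma's adjusted p = 0.026). H2-Q7 was also without overlap but missed the threshold (0.53, SE 0.21, adjusted p = 0.22). An exact two-sided permutation test of 3 against 3 libraries gave p = 0.1 for each of the 3 genes, the smallest it can give. Neutrophil markers summed to 30.8 to 70.7 RPKM in untreated DKO and 25.1 to 39.4 RPKM in untreated Apoe-/- cells, and fibroblast markers to 0.944 to 4.66 and 0.642 to 11.8 RPKM, so both overlapped. At oxLDL 10 the neutrophil sums were 31.6 to 69.3 and 31.1 to 41.8 RPKM, and at oxLDL 60 28.4 to 50.0 and 25.7 to 37.3 RPKM. Their part in the result was not tested.

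These calls are close to the threshold. With a pseudocount of 0.01 RPKM or without any 1 of the 6 libraries, the call of H2-Q6 was lost, and without Apoe-/- replicate 1 or DKO replicate 1 neither gene was called. Neither was called with no filter on low values, after rescaling, in a fit of only the 6 libraries or as part of the sum of H2-Q6 to H2-Q9 (0.68, SE 0.16, limma's adjusted p = 0.0754). The sign was positive in all of these.

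At oxLDL 10 and oxLDL 60 no member was called between the genotypes by limma (0.0623% and 0.0779% of all genes called higher, 0.0234% and 0.0467% lower, 0.0857% and 0.125% in all). The Qa-2 genes were the members farthest apart. At oxLDL 10, H2-Q6 was 16.6, 15.7 and 20.5 RPKM in DKO and 11.9, 14.5 and 10.6 RPKM in Apoe-/- cells (0.51, SE 0.15, limma's adjusted p = 0.347). At oxLDL 60 its log2 fold change was 0.63 (SE 0.15, adjusted p = 0.177). For H2-Q9 the values were 0.57 (SE 0.18, adjusted p = 0.375) and 0.70 (SE 0.18, adjusted p = 0.239), and its libraries at oxLDL 10 were 2.73, 2.35 and 3.00 RPKM in DKO and 1.56, 2.08 and 1.71 RPKM in Apoe-/- cells. H2-Q7 overlapped at oxLDL 10, where DKO libraries were 8.12, 6.03 and 9.82 RPKM and Apoe-/- libraries 5.07, 7.15 and 4.88 RPKM (0.47, SE 0.21, adjusted p = 0.493). It did not overlap at oxLDL 60 (0.60, SE 0.21, adjusted p = 0.513). At all 3 treatments H2-Q6 and H2-Q9 were higher in every DKO library than in any Apoe-/- library, which held for 0.841% of all genes. In untreated cells 4 members lay higher without overlap (18.3% of all genes) and none lower (1.23%). At oxLDL 10 there were 3 higher (8.98%) and none lower (3.12%), and at oxLDL 60 3 higher (4.49%) and 1, Tapbp, lower (12%). Over treatments, with 1 mean for each replicate number of a genotype, the log2 fold changes were 0.61 for H2-Q6 (SE 0.12, limma's adjusted p = 0.297), 0.53 for H2-Q7 (SE 0.17, adjusted p = 0.443) and 0.75 for H2-Q9 (SE 0.14, adjusted p = 0.279). No member was called there, against 0.0701% of all genes higher and 0.0234% lower (0.0935% in all).

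**Figure D3:**
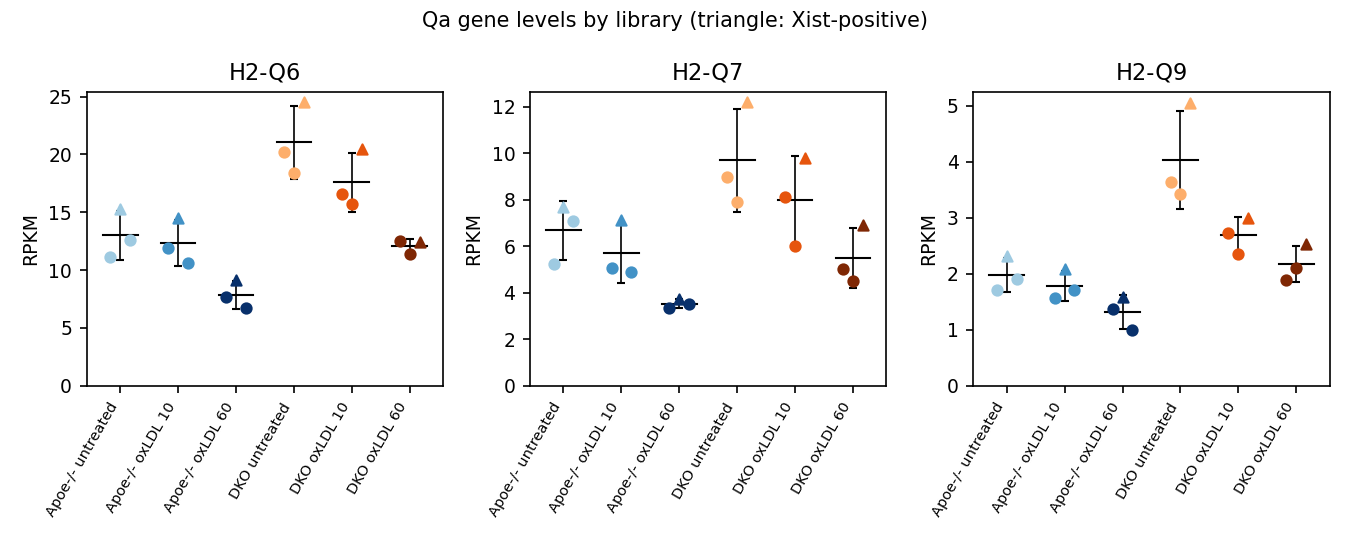
RPKM of H2-Q6, H2-Q7 and H2-Q9 in every library, by genotype and treatment, with the group mean and SD (n = 3); triangles mark libraries with Xist above 1 RPKM. DKO libraries of H2-Q6 and H2-Q9 lie above the Apoe-/- libraries of the same treatment.

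The library of the Xist-positive replicate was the highest of 3 in all 6 groups for 5 of 10 members (H2-K1, H2-D1, H2-Q7, H2-Q9 and B2m), against 2.51% of all genes. The ratio of its level to the mean of the other libraries was 1.21 to 1.27 for H2-K1 and 1.09 to 1.46 for H2-Q7. Each group holds 1 such library. Its part in the spread between replicates was not tested. With a term for Xist-positive libraries, 3 members were called higher in untreated DKO cells (1.34% of all genes called), 2 at oxLDL 10 (0.584%), 3 at oxLDL 60 (0.382%) and 3 over treatments (0.693%). H2-Q6 and H2-Q9 were among them each time: at oxLDL 60 their adjusted p were 0.00071 and 0.0035 by limma, at the same log2 fold changes of 0.63 and 0.70. Without the Xist-positive animals, which leaves 2 per group, H2-Q6 and H2-Q9 were called in untreated cells (0.70 and 0.93, limma's adjusted p = 0.00234 and 0.00381; 2.4% of all genes). H2-Q6 alone was called at oxLDL 10 (0.52, adjusted p = 0.0274; 0.857%), and both at oxLDL 60 (0.576%) and over treatments (1.73%). At oxLDL 60 these were 0.72 for each, against 0.63 and 0.70 with all libraries.

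**Figure D4:**
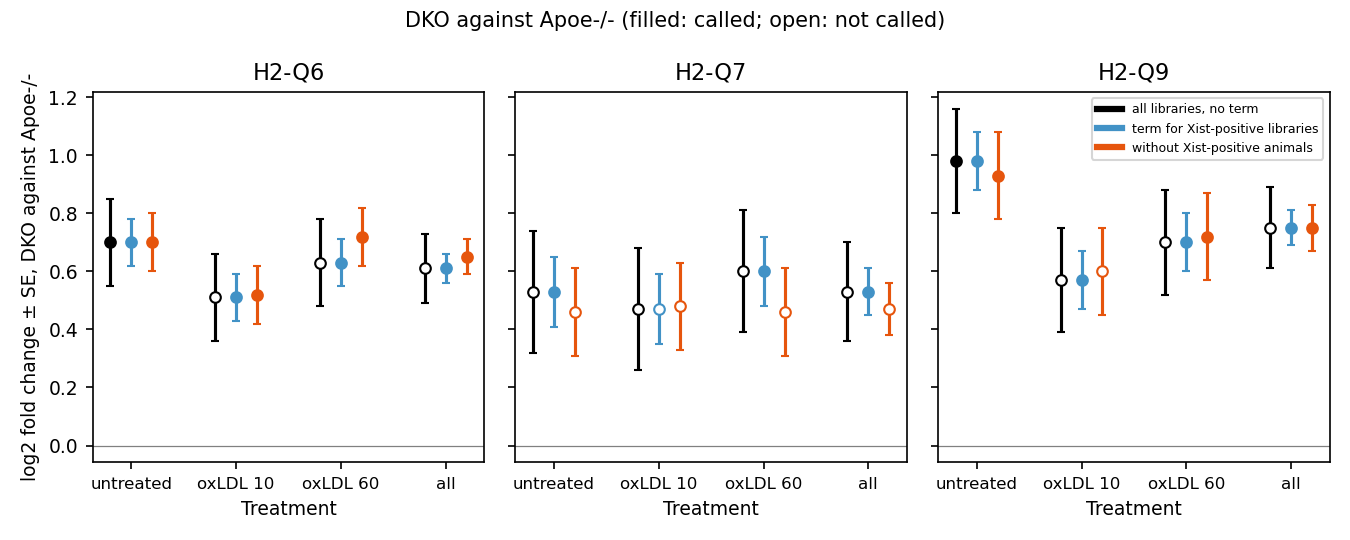
Log2 fold change (limma, with its SE) of H2-Q6, H2-Q7 and H2-Q9 in DKO against Apoe-/- cells at each treatment and over all treatments, from all libraries, with a term for Xist-positive libraries, and without the Xist-positive animals; filled points were called, open points were not. All points lie between 0.46 and 0.98, and the SE is smaller with the Xist term.

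The remaining 7 members were not called between the genotypes at any treatment, and none had a fold of 1.4. Mean levels of H2-K1 in DKO were 1.1, 1.07 and 1.02 times those in Apoe-/- cells in untreated, oxLDL 10 and oxLDL 60 cells, and those of H2-D1 1.08, 1.02 and 0.97 times. For B2m the ratios were 1.01, 0.94 and 0.97, for Tap1 1.02, 1.1 and 1.0, and for Tapbp 0.93, 0.9 and 0.89. H2-Q4, at 1.14, 1.14 and 1.1, had an unadjusted p under 0.05 in untreated and oxLDL 10 cells (0.19, SE 0.09 in both, limma's adjusted p = 0.28 and 0.503). So did Tap2 (0.20 and 0.18, SE 0.08, adjusted p = 0.248 and 0.503). A p above the threshold does not show that these levels were equal.

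Neither interaction of genotype and oxLDL was called for any member in limma (0 and 2 of all genes were called, the latter 0.00779% higher and 0.00779% lower), and none had an unadjusted p under 0.05. The largest in size was that of H2-Q9, at -0.41 (SE 0.25, limma's adjusted p = 1) for oxLDL 10 and -0.29 (SE 0.25, adjusted p = 0.693) for oxLDL 60. A difference between the genotypes in the response to oxLDL was therefore not shown for these genes, which does not show that it is absent.

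Position was set beside the genotype values for the stretch of chromosome 17 from Tapbp to Treml4. Of its 190 tested genes, 3 were called in untreated cells, namely H2-Q6, Notch4 and Treml4 itself, and 1, Treml4, in each of the other comparisons of genotype. H2-Q9, also called in untreated cells, is not among the 190. RefSeq assigns it to chromosome 17, but the start listed for it does not fall in this stretch. Over chromosome 17 as RefSeq assigns genes, 5 of 673 were called in untreated cells (these 3, H2-Q9 and Mcrip2), against 27 of 12732 genes matched to RefSeq. In the comparisons at oxLDL 10, at oxLDL 60 and over treatments, Treml4 was 1 of 11, 16 and 12 matched genes called. Notch4 and Mcrip2 were named after their values were seen. The median log2 fold change of the 190 in untreated cells was 0.10, against 0.09 over all matched genes. The deletion and any linked region inherited with it cannot be told apart in this design.

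Across the 18 libraries, H2-Q6 followed H2-Q7 with a Pearson r of 0.951 and H2-Q9 with 0.947, and Tap1 followed Tapbp with 0.904 and Tap2 with 0.894. H2-D1 stood aside, with an r of 0.046 to Tap1 and 0.242 to H2-Q6, and of 0.629 to H2-K1. Of 10045 other genes with a mean of at least 1 RPKM, those most like H2-K1 were Fut7 (r = 0.943), Dpep2 (0.917) and Unc93b1 (0.914), and those most like H2-Q7 were Pde2a (0.909), Slc13a3 (0.907) and Dmxl2 (0.898). The libraries share treatments and may share animals, and the Qa-2 genes share stretches of transcript, so these coefficients are descriptions.

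The wider class I pathway was read from 59 further genes, of which 48 were tested. At oxLDL 60, 16 were called lower and 2 higher in Apoe-/- cells, and 17 lower and 2 higher in DKO cells, against the shares of all genes given above. Between the genotypes none was called at any treatment by limma (0.21%, 0.0857% and 0.125% of all genes in untreated, oxLDL 10 and oxLDL 60 cells). Of 16 genes of transcriptional control, 7 were lower at oxLDL 60 in each genotype (6.78% and 7.31% of all genes). Irf1, an interferon-induced activator of class I genes, was 17.4, 29.3 and 27.9 RPKM in untreated Apoe-/- cells and 5.60, 7.84 and 6.46 RPKM at oxLDL 60 (-1.87, SE 0.22, limma's adjusted p = 4.11e-06). In DKO cells it went from 17.5, 18.3 and 26.5 RPKM to 6.20, 5.55 and 6.91 RPKM (-1.71, SE 0.22, adjusted p = 1.31e-05). Nlrc5, the transactivator of class I genes, changed by -0.63 and -0.67 (SE 0.09, adjusted p = 7.76e-05 and 4.5e-05), from 7.68, 9.30 and 10.8 RPKM to 5.44, 6.05 and 6.23 RPKM in Apoe-/- cells.

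Irf1 and Stat2 were lower already at the low dose in Apoe-/- cells (-0.94, SE 0.22, limma's adjusted p = 0.014 and -0.95, SE 0.13, adjusted p = 0.000376), where 4 of the 48 genes were called lower against 2.04% of all genes. In DKO cells 3 were called lower against 1.69%, among them Stat2 (-0.72, SE 0.13, adjusted p = 0.00366) and H2-T24 (-0.75, SE 0.16, adjusted p = 0.0125). Without DKO untreated replicate 3 that count was 1 (185 of 12838 genes called), and with the replicate number as a fixed block it was 5 (449 of 12838).

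Of 13 genes of peptide generation, 5 were lower at oxLDL 60 in each genotype (6.78% and 7.31% of all genes). The immunoproteasome subunits Psmb9 and Psmb10 changed by -0.60 and -0.69 in Apoe-/- cells (SE 0.14 and 0.11, limma's adjusted p = 0.00247 and 9.63e-05) and by -0.70 and -0.78 in DKO cells (adjusted p = 0.000845 and 3.45e-05). Psmb8, the third such subunit, was called in DKO cells (-0.50, SE 0.08, adjusted p = 0.000135) and short of the fold limit in Apoe-/- cells (-0.32, SE 0.08, adjusted p = 0.00468). Erap1, which trims peptides in the endoplasmic reticulum, was not called (-0.09 and -0.17, SE 0.07, adjusted p = 0.369 and 0.103).

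Of 7 genes of loading and folding, 1 was lower in each genotype (6.78% and 7.31% of all genes), too small a count to describe the set. That gene was Tapbpl, the tapasin-related TAPBPR, at -0.56 and -0.58 (SE 0.09, limma's adjusted p = 0.000167 and 0.000137). The chaperone gene Calr changed by 0.06 and -0.10 (SE 0.06) and Pdia3, whose product ERp57 binds tapasin, by 0.13 and -0.02 (SE 0.07), none past the test. Of 12 other class I and class I-like genes, 3 were called lower in Apoe-/- and 4 in DKO cells (6.78% and 7.31% of all genes). In each genotype 2 were called higher (7.13% and 4.87% of all genes). H2-T24 was 6.16, 8.17 and 10.6 RPKM in untreated Apoe-/- cells and 1.72, 2.42 and 2.27 RPKM at oxLDL 60 (-1.89, SE 0.16, adjusted p = 1.56e-07), and changed by -1.92 (SE 0.16, adjusted p = 1.44e-07) in DKO cells. The genes that rose present other antigens than peptides, Mr1 vitamin metabolites and Cd1d1 lipids. Mr1 changed by 0.65 and 0.51 (SE 0.15, adjusted p = 0.00273 and 0.016), and Cd1d1 by 0.52 and 0.54 (SE 0.17, adjusted p = 0.028 and 0.0271).

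**Figure D5:**
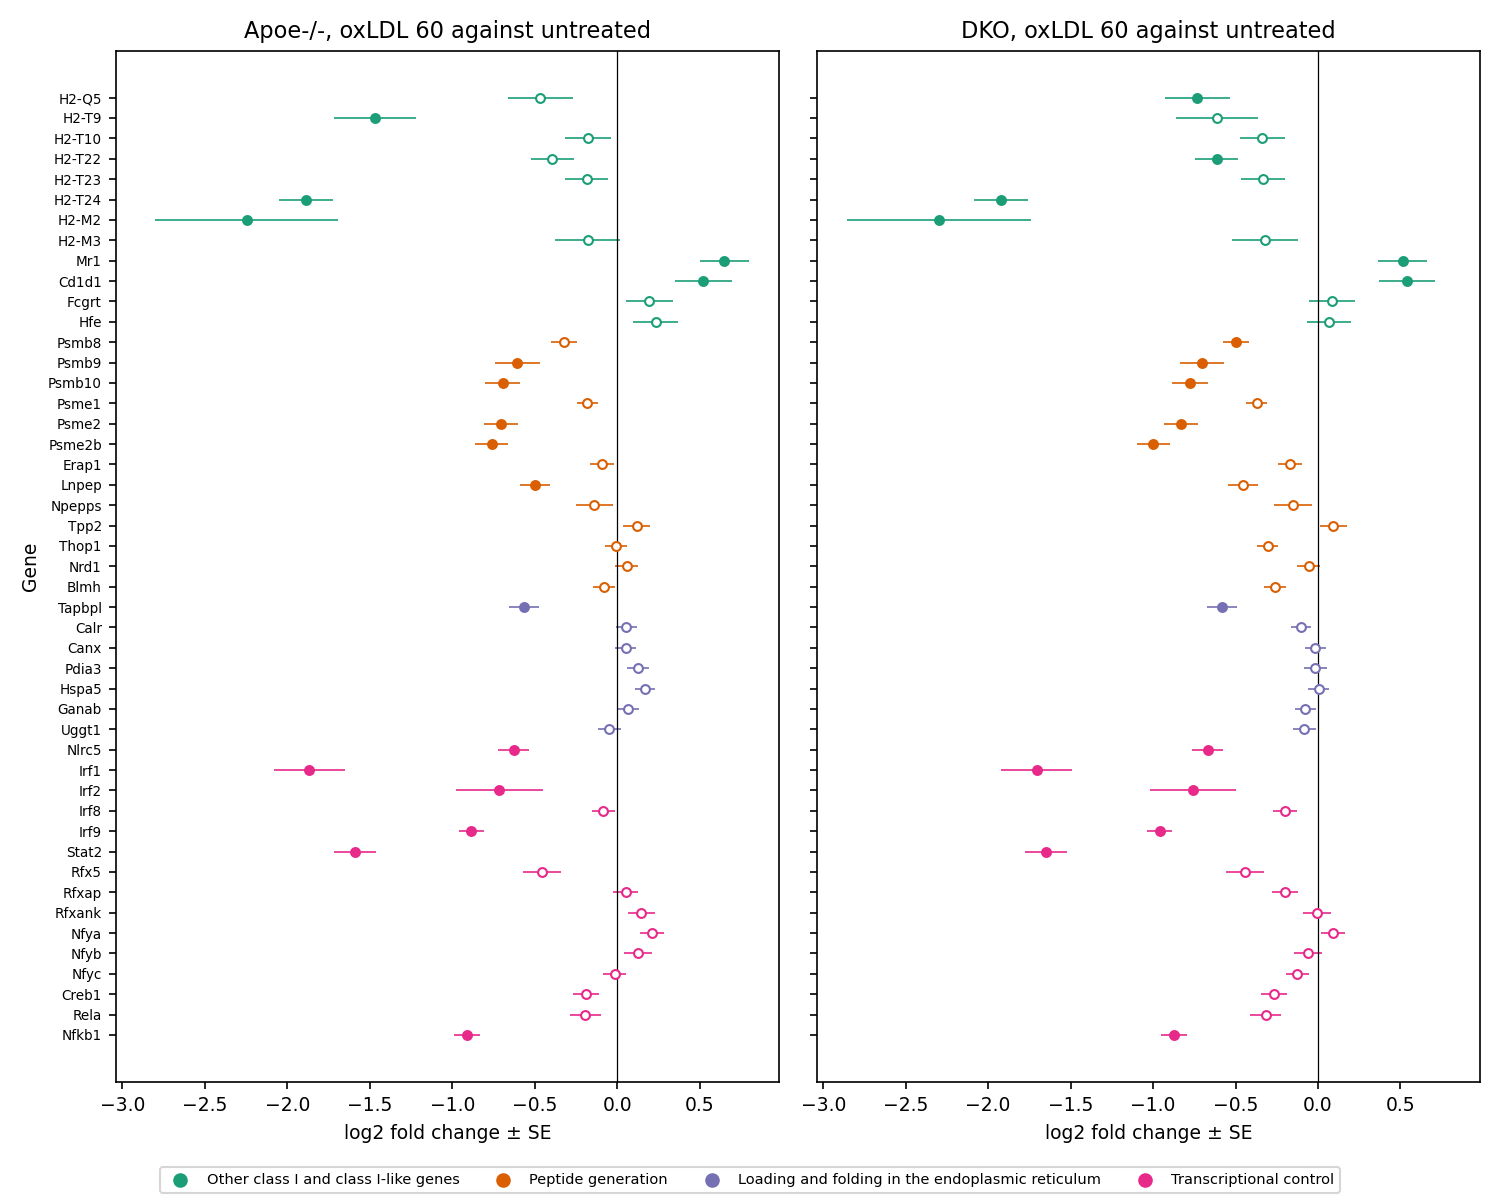
Log2 fold change (limma, with its SE) of tested genes of the wider class I pathway at oxLDL 60 against untreated in Apoe-/- (left) and DKO (right) cells, coloured by role; filled points were called. Irf1, Stat2, Psmb9, Psmb10 and Tapbpl lie to the left in both panels, Calr and Pdia3 near 0, and Mr1 and Cd1d1 to the right.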

How the data were processed

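RNA extracted as total RNA was sequenced by the authors, aligned with STAR to mm10 per the labels, and deposited as gene-level RPKM (reads per kilobase of gene, scaled to library size). The study's methods name a workflow that holds STAR, RnaSeqC and Subread, and do not say which counter or annotation made this table. They also name a poly(A) selection, at another read length than the labels, so whether it covers these libraries is uncertain. All 18 libraries were used, grouped by their titles. Values were analysed as log2(RPKM + 0.1) with limma 3.58.1 in R 4.3.3 (lmFit, eBayes with trend; 1 mean per group), on the 12838 genes that reached 0.1 RPKM in 3 or more libraries, with Benjamini-Hochberg adjustment over these genes in each comparison. A pseudocount understates fold changes of low genes. The limma fit was tested on simulated data with independent noise in each library. That simulation held no correlation by replicate number and no Xist effect, so it does not cover these features of the data.

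The members and lists were chosen with earlier results of these data known. Named genes are the 10 members, Treml4, the called wider-list genes of largest fold (up to 2 in each direction, mean of at least 1 RPKM), a fixed set of that list, and the 3 genes most like H2-K1 and H2-Q7. Libraries of 1 genotype with the same replicate number deviated together in all 18 pairs (correlation 0.183 to 0.695, median 0.405). Pairs with other numbers ranged from -0.613 to 0.292 within a genotype (median -0.347) and from -0.438 to 0.481 between genotypes, so the ranges overlap. Blocks by number within a genotype were tried. The pairing comes from the data, since the labels do not name animals, and replicate numbers with Xist transcripts are called Xist-positive animals on that basis. No columns of per-sample values were left out. The values of 1 gene of the wider list are not reported here.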

Additional observations from a re-analysis of the deposited data

How the results depend on the processing

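Alternatives were another pseudocount, filter, scaling, set of libraries, replicate block or Xist term, no fold limit, the Qa-2 genes summed, and leaving out each replicate. Of 100 values (10 members in 10 comparisons), 36 turned sign under some alternative, none with an unadjusted p under 0.05 (lowest 0.442, largest size 0.12 on the log2 scale; 104 of 1860 values under alternatives). The other results below are the counts of calls and the member values the text gives singly, a limit set after these turns of sign were seen, although all members had been planned. H2-D1 at oxLDL 60 in DKO cells ranged from -0.04 to 0.06 without 1 replicate.

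Members called between untreated genotypes (2) became 1 with a pseudocount of 0.01 RPKM, 0 with no filter, after rescaling, with only the groups compared or summed, and 0 to 1 without 1 replicate. The cause was not tested. The 0 calls at oxLDL 10, at oxLDL 60 and over treatments became 2, 3 and 3 with the Xist term, and 1, 2 and 2 without the Xist-positive animals. Without those animals 1 wider-list gene was called at oxLDL 60 (0.576% of all genes). With no fold limit, 7 members were called at oxLDL 60 in Apoe-/- cells (30.2% of all genes). The wider list then had 1 call between untreated genotypes (0.397% of all genes). At oxLDL 10 it had 7 and 5 calls in Apoe-/- and DKO cells (7.04% and 3.97% of all genes). At oxLDL 10 in DKO cells, either replicate block and the Xist term gave 1 member (H2-Q9). The fixed replicate block gave 5 genes of the wider list, against 3, and leaving out the Xist-positive animals 1 (2.45% of all genes). Without 1 replicate these counts were 0 to 1 for members in Apoe-/- cells and 1 to 3 for the wider list in DKO cells. The blocks changed no other call of a member, where a call needs both the adjusted p and the fold. They did bring the adjusted p of H2-K1 at oxLDL 60 and of Tap1 and Tapbp at oxLDL 10 under 0.05 at folds below the limit (Tapbp in DKO cells, fixed block, limma's adjusted p = 0.0438). Rescaling moved the median of all genes by over 0.1 in the interaction at oxLDL 60 alone (from -0.114 to 0.005, log2). Between untreated genotypes the median moved from 0.088 to -0.007. There the log2 fold changes became 0.6 for H2-Q6 and 0.89 for H2-Q9, and both calls were lost.

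RPKM hide the counts, and 3 replicates a group limit what can be called: the calls between genotypes change with single libraries, and reads shared by Qa-2 copies cannot be assigned with certainty.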
